A study of Mus musculus with 12 samples.

Results

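The 10 genes described here belong to the integrated stress response controlled by the transcription factor ATF4. They are Atf4, Atf5, Ddit3, Atf3, Asns, Psat1, Phgdh, Trib3, Sesn2 and Chac1. They were picked by name as genes of this pathway, with earlier results of these data known, and matched to the Ensembl identifiers of the count tables, and all 10 were found among the 48795 genes listed and among the 11228 genes that passed the filter on low counts. RNA was sequenced from bone marrow derived macrophages (BMDMs), which are macrophages grown in culture from mouse bone marrow cells with M-CSF. WT cells, of the strain labelled C57BL/6 (C57BL/6NJ in the methods of the study), and Acod1-/- cells, of the strain C57BL/6NJ-Acod1em1(IMPC)J/J, came from male mice. Cells of each genotype received vehicle, particulate matter (PM, an urban dust) at 20 µg/cm2 for 24 hours, or 4-octyl itaconate (OI, a form of itaconate that enters cells) at 0.25 mM for 2 hours before PM, with 2 libraries in each of the 6 groups. Acod1 encodes the enzyme that makes itaconate. The deletion is carried by every cell of the animal, no group received OI without PM, and the labels do not say whether the 2 libraries of a group came from separate cultures or animals, so p-values measure only the spread between these libraries.

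In the integrated stress response, kinases that sense amino acid shortage, unfolded proteins, heme lack or double-stranded RNA phosphorylate the translation factor eIF2alpha. General translation then slows, while the mRNA of Atf4 is translated more. ATF4 protein, with partner factors, switches on genes for amino acid synthesis and uptake, tRNA charging, redox balance and, when stress persists, cell death. The level of Atf4 mRNA is therefore a reading of transcription and mRNA stability and not of ATF4 protein, which was not measured by these data.

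The libraries held between 33616577 and 36817898 counts on genes, with a median of 34480636, so the least abundant of the 10 genes, Chac1, still had between 38 and 228 counts per library. All 8 macrophage markers, among them Adgre1, Csf1r and Cd68, were above 1.5 CPM in every group, while the summed normalized CPM of 4 markers of T and NK cells reached 0.711 (mostly Klrb1c, with Cd3e and Cd3g at 0 in every library), of 3 mast cell and basophil markers 0.0308, of 5 dendritic cell markers 0.924 and of 4 markers of fibroblasts 1.55. Cd79b, a B cell marker, was between 0.862 and 4.04. Of 8 neutrophil markers, Mmp8 carried the sum, from 26.4 to 422 normalized CPM, while Ly6g was between 0 and 0.0301 and Ngp reached 2.56. The summed macrophage markers, of which Lyz2 alone was at 9084 to 21225, ranged in WT cells from 14447 to 14599 normalized CPM with vehicle, from 23189 to 26788 with PM and from 14428 to 16637 with OI and PM, and the part of this shift in the results below was not tested. In these bulk samples, fewer cells of a type and less RNA per cell cannot be told apart. Acod1 itself was at 1.84 and 2.49 normalized CPM in the WT vehicle libraries and at 1.26 and 1.22 in those labelled Acod1-/-. With PM it was at 181 and 170.3 in WT cells and at 107.6 and 94.1 in cells labelled Acod1-/-, and the difference, -0.80 on the log2 scale (SE 0.203), had an adjusted p of 0.0807 (edgeR). Whether the counted reads cover the deleted part of the gene is not known here, so the genotype stands as labelled.

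The 2 libraries of OI+PM-treated WT BMDMs stood apart from each other more than any other pair. A chi-square of their counts gave 58.5 per degree of freedom, against 2.61 to 27.3 in the other 5 groups, and a pair that differed by counting noise only would be near 1. Their difference fell with exonic length across the genes tested (Spearman -0.61), as did that of the 2 WT PM libraries (-0.595), which had the next largest chi-square, and it was 0.45 at the median of the 10 genes (log2, replicate 2 over replicate 1) against 0.04 at the median of all genes tested. All 10 genes were higher in replicate 2, as were 54.3% of all genes, and their median exonic length was 2256 bases against 4478 for all genes. The member counts and medians that rest on this group are therefore given with and without each of its libraries.

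ATF4 with a C/EBP partner is known to bind composite elements of the form TGATGNAA, in which N stands for any base. These letters were searched on both strands from 250 bases before to 50 bases after the annotated start sites (RefSeq, GRCm38.p6), where all 10 genes were matched. Asns, Chac1, Trib3 and Atf3 held a match, 4 of 10 genes, compared with 4.51% of 27025 genes and 3.97% of 32851 start sites. The stretch around each match is shown with the 8 letters in capitals, read on the strand on which they lie, because these are the members whose start regions hold the element.
Asns: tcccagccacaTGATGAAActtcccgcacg
Trib3: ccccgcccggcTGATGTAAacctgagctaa
Chac1: cctggcaggagTGATGCAAcggcagggaag
Atf3: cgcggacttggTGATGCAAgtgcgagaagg
The Asns stretch is at chr6:7693214-7693243 on the minus strand, which is the strand of the gene, and its match begins 23 bases before the start site in a part that the gene annotation also places in an exon. The other 3 matches lie on the strand opposite to their gene. The Trib3 stretch is at chr2:152344028-152344057 on the plus strand, with its match 14 bases after the start site, the Chac1 stretch at chr2:119351038-119351067 on the minus strand, 193 bases before it, and the Atf3 stretch at chr1:191183425-191183454 on the plus strand, 110 bases before it. Chac1 and Atf3 carry the variant TGATGCAA, which was found at 0.895% of the start sites. The sequence upstream of Chac1, printed on the gene strand (chr2:119350992-119351228, plus strand) with the element in capitals as its reverse complement, ends at the base before the first annotated exon and shows how far upstream the element lies.
Chac1 upstream: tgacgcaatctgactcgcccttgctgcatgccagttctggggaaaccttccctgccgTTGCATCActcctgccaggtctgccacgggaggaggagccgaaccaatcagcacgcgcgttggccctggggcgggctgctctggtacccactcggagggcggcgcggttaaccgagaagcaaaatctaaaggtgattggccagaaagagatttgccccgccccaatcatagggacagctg
A match describes the letters only, and no binding was measured.

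Among the genes, levels can be compared after division by exonic length. In vehicle-treated WT BMDMs, Atf3 stood highest at 222 ± 0.859 RPKM (SD, n = 2), followed by Atf4 at 76.9 ± 4.24 and Atf5 at 27.6 ± 0.182. Asns at 19.2 ± 2.00 and Psat1 at 18.2 ± 1.39 did not differ beyond their spread, and Ddit3 followed at 11.01 ± 1.23 and Sesn2 at 9.46 ± 0.102. Trib3 at 3.81 ± 0.192, Phgdh at 1.78 ± 0.287 and Chac1 at 0.901 ± 0.397 were the lowest. The genes thus spanned from an abundant immediate stress factor to enzymes near the CPM filter, and 8 of them were above 1.5 CPM in all 12 libraries. Within a gene, the highest group mean was between 1.496 times (Sesn2) and 5.25 times (Trib3) the lowest. The highest group was OI+PM-treated WT BMDMs for 9 of the 10 genes, and the vehicle-treated group labelled Acod1-/- for Psat1.

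**Figure D1:**
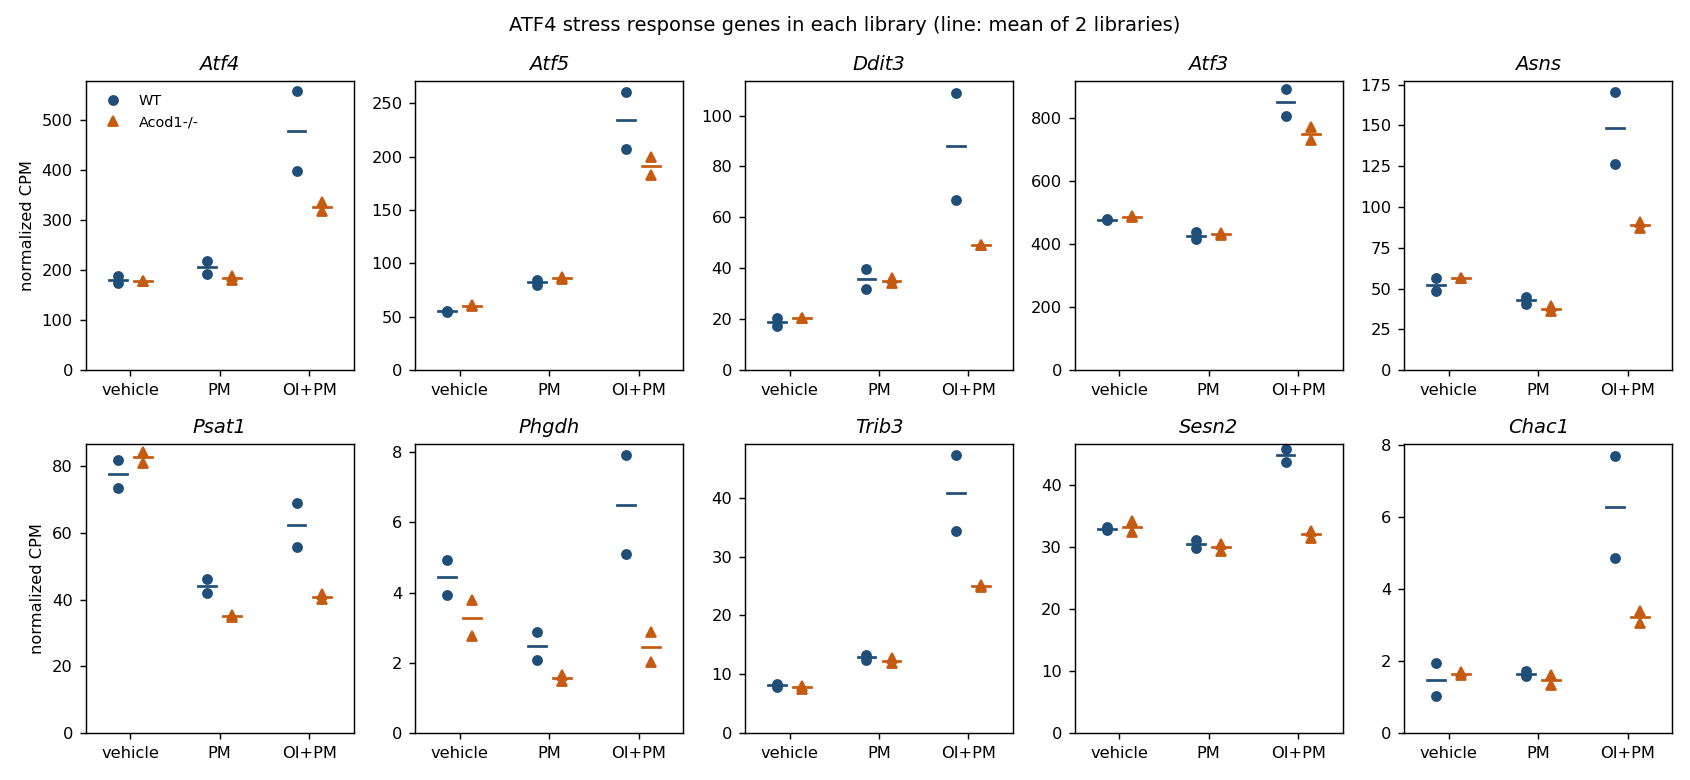
Normalized CPM (vertical axes, each starting at 0) of the 10 genes in vehicle-treated, PM-treated and OI+PM-treated BMDMs. Blue circles are WT libraries, orange triangles are libraries labelled Acod1-/-, and lines are means of 2 libraries. In WT cells all 10 genes were higher with OI and PM than with PM, and the upper of the 2 WT libraries with OI and PM is replicate 2 in every panel.

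The first question was what PM alone does to these genes. In WT BMDMs the 10 genes did not move together: Atf5, Ddit3 and Trib3 rose, Psat1 and Phgdh fell, and the other 5 did not pass the test at an adjusted p of 0.05. None was a DEG, which requires in addition a 2-fold change, whereas 3.02% of all genes tested were higher and 1.13% lower DEGs. By the adjusted p alone, 3 of 10 members were higher and 2 lower, against 12.6% and 12.2% of all genes. The members had a median log2 fold change of 0.02, which was -0.13 without WT vehicle replicate 1, and all genes one of 0.01. With total count scaling or with a correction for gene length Atf3, Asns and Sesn2 were lower as well, which made 5 of 10 lower, against 18.1% and 14.3% of all genes in these fits.

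Among the transcription factors, Atf4 was at 174 and 188 normalized CPM with vehicle and at 193 and 219 with PM in WT cells. The PM libraries lay just above the vehicle libraries, and the log2 change of 0.18 (SE 0.132, adjusted p = 0.311, edgeR) did not pass. Atf5, a relative of Atf4 whose mRNA is under a similar translational control, was at 55.3 and 54.8 with vehicle and at 80.2 and 84.9 with PM. It rose 1.498-fold (log2 0.58, SE 0.0989, adjusted p = 0.00229, edgeR). Ddit3 encodes CHOP, a factor of prolonged stress that can promote cell death, and was at 17.4 and 20.3 with vehicle and at 31.97 and 39.5 with PM. It rose by 0.92 on the log2 scale (SE 0.199, adjusted p = 0.00865, edgeR). Without WT vehicle replicate 1 or WT PM replicate 2 the adjusted p of Ddit3 was 0.0846 and 0.0688. Exons of Atf5 overlap Il4i1 and Nup62, and exons of Ddit3 overlap Mars and Gm4189, all on the other strand, and the counts of both genes are uncertain because no source used here says whether strand entered the counting. Atf3, a stress-induced factor that is also a regulator of inflammatory genes, was at 477 and 479 with vehicle and at 416 and 439 with PM, a log2 change of -0.16 (SE 0.0616, adjusted p = 0.0826, edgeR) that passed in DESeq2 (adjusted p = 0.0325). Without replicate 1 or without replicate 2 of the WT OI+PM group, whose libraries enter the shared estimate of the spread, the adjusted p was 0.0475 and 0.0482 for Atf4 and 0.0204 for Atf3 in both cases.

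Of the 3 genes of amino acid synthesis, Psat1 and Phgdh fell with PM and Asns did not pass the test. Psat1 encodes a transaminase of serine synthesis and was at 73.3 and 81.7 normalized CPM with vehicle and at 41.9 and 46.3 with PM in WT cells. It was 1.76-fold lower (log2 -0.81, SE 0.102, adjusted p = 0.000317, edgeR). Phgdh, the enzyme that commits glycolytic carbon to serine, was at 3.93 and 4.94 with vehicle and at 2.09 and 2.88 with PM. Its log2 change of -0.84 (SE 0.271, adjusted p = 0.0485, edgeR) passed narrowly and did not pass when any 1 of the 4 libraries compared was left out, where the adjusted p ranged from 0.0784 to 0.22. Leaving out a library of the other groups also ended the call in 6 of 8 cases, with an adjusted p between 0.0583 and 0.0722. Asns, which encodes asparagine synthetase, was at 48.6 and 56.4 with vehicle and at 40.9 and 44.7 with PM, a log2 change of -0.30 (SE 0.131, adjusted p = 0.119, edgeR). It passed the test without either WT OI+PM library.

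Among the feedback and effector genes, Trib3 rose with PM and the other 2 did not pass. Trib3 encodes a pseudokinase that binds ATF4 and restrains it, and was at 8.39 and 7.81 normalized CPM with vehicle and at 13.2 and 12.5 with PM in WT cells. Its log2 change was 0.66 (SE 0.141, adjusted p = 0.00826, edgeR), and 0.61 with an adjusted p of 0.0674 without WT vehicle replicate 2. Sesn2, a leucine sensor that holds back mTORC1, was at 33.1 and 32.6 with vehicle and at 31.05 and 29.7 with PM. Chac1, an enzyme that breaks down glutathione, was at 1.02 and 1.93 with vehicle and at 1.57 and 1.73 with PM, so its libraries overlapped.

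In cells labelled Acod1-/-, Atf5, Ddit3 and Trib3 rose with PM and Psat1, Phgdh and Asns fell, that is 3 of 10 members higher and 3 lower by the adjusted p, against 12% and 11.9% of all genes. Atf3 and Sesn2 were lower too with total count scaling or a correction for gene length, where 16.4% and 14% of all genes were lower. Psat1 and Phgdh were the 2 DEGs, both lower, against 1.31% of all genes that were lower DEGs. Psat1 went from 84.2 and 81.05 normalized CPM with vehicle to 34.7 and 35.3 with PM, a 2.36-fold decrease (log2 -1.24, SE 0.103, adjusted p = 1.78e-05, edgeR). This was the largest PM effect among the members, with no overlap between the libraries. Phgdh went from 2.76 and 3.78 to 1.47 and 1.64 (log2 -1.07, SE 0.305, adjusted p = 0.0298, edgeR), and its adjusted p was 0.189 without vehicle replicate 2, 0.164 without PM replicate 1 and 0.1 without PM replicate 2 of this genotype. Asns went from 56.4 and 56.6 to 39.3 and 36.3 (log2 -0.58, SE 0.131, adjusted p = 0.01, edgeR), and did not pass without either vehicle library or without PM replicate 2.

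Of the 3 genes that rose in cells labelled Acod1-/-, Atf5 went from 60.7 and 60.2 normalized CPM to 87.4 and 85.5 (log2 0.52, SE 0.0987, adjusted p = 0.0041, edgeR). Ddit3 went from 20.6 and 20.5 to 36.1 and 34.2 (log2 0.77, SE 0.198, adjusted p = 0.0188, edgeR), and its adjusted p lay between 0.0635 and 0.105 when any 1 of these 4 libraries was left out. Trib3 went from 7.55 and 7.97 to 11.8 and 12.7 (log2 0.66, SE 0.143, adjusted p = 0.00772, edgeR), and did not pass without vehicle replicate 1 or without PM replicate 2. Atf4 was at 178 and 179 with vehicle and at 188 and 181 with PM, a log2 change of 0.05 (SE 0.132). The log2 value of Atf3 was -0.17 (adjusted p = 0.069, edgeR), and 0.0159 and 0.016 without replicate 1 and without replicate 2 of the WT OI+PM group. The genotype difference of the PM effect did not pass for any member in edgeR, where 1 member, Psat1, had an unadjusted p under 0.05 (log2 difference -0.43, 95% interval -0.75 to -0.11). DESeq2 called 0 members as well. This interaction was called for 0 genes in all, and 2.43% of all genes had an unadjusted p under 0.05.

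**Figure D2:**
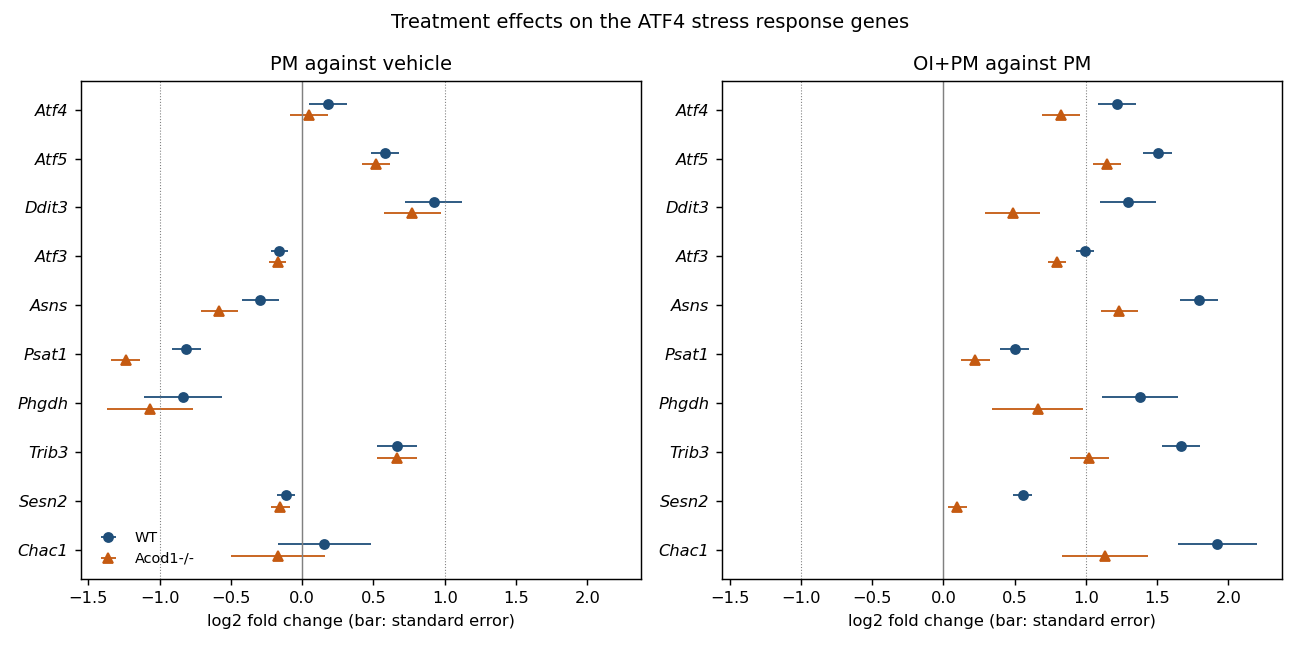
Log2 fold change of each gene with PM against vehicle (left) and with OI and PM against PM (right), in WT (blue circles) and Acod1-/- (orange triangles) BMDMs, with bars of 1 standard error from the edgeR fit and dotted lines at a 2-fold change. PM effects lie on both sides of 0, from -1.24 for Psat1 in Acod1-/- cells to 0.92 for Ddit3 in WT cells, while OI effects lie above 0 for all 10 genes in both genotypes.

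The next comparison asks what OI adds to PM, and here the genes moved in 1 direction. In WT BMDMs all 10 members were higher with OI and PM than with PM by the adjusted p, against 21.3% of all genes that were higher and 22.6% that were lower. As higher DEGs were called 7 members, Atf4, Atf5, Ddit3, Asns, Phgdh, Trib3 and Chac1, against 2.3% of all genes, whereas 8.49% of all genes were lower DEGs. Without replicate 2 of the WT OI+PM group the log2 changes of Atf4 (0.957) and Ddit3 (0.900) were under the 2-fold threshold. Without replicate 1 that of Atf3 (1.07) was above it. The members had a median log2 fold change of 1.34, compared with 0.02 for all genes. Both OI+PM libraries lay above both PM libraries for all 10, as they did for 29.7% of all genes.

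Atf4 was at 399 and 559.6 normalized CPM with OI and PM in WT cells, against 193 and 219 with PM, a 2.33-fold increase (log2 1.22, SE 0.133, adjusted p = 4.76e-05, edgeR). Atf5 was at 207.2 and 260.5, or 2.83 times its PM level (log2 1.5, SE 0.0995, adjusted p = 1.18e-06, edgeR). Ddit3 was at 66.7 and 109 (log2 1.30, SE 0.194, adjusted p = 0.000427, edgeR), and its 2 libraries differed by 0.71 on the log2 scale, the widest replicate gap among the members in this group. Mars, whose exons it overlaps, rose by 0.74 (adjusted p = 3.36e-05, edgeR). Atf3 was at 808 and 895 and rose 1.99-fold (log2 0.99, SE 0.0621, adjusted p = 7.86e-07, edgeR), just short of the fold threshold. All 4 transcription factor genes therefore rose at the mRNA level, including Atf4 and Atf3, for which the effect of PM alone had not passed.

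Asns, at 126 and 170.5 normalized CPM with OI and PM, rose 3.47-fold (log2 1.79, SE 0.133, adjusted p = 2.63e-06, edgeR). Among the serine enzymes, Phgdh, at 5.09 and 7.92, rose 2.60-fold (log2 1.38, SE 0.267, adjusted p = 0.00223, edgeR), above its vehicle libraries at 3.93 and 4.94. Psat1, at 55.9 and 68.8, rose 1.41-fold (log2 0.50, SE 0.102, adjusted p = 0.00308, edgeR) but stayed below both vehicle libraries, at 73.3 and 81.7. In a fit of the 2 compared groups alone, Psat1 had an adjusted p of 0.0895.

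Chac1 showed the largest change of the 10, at 4.88 and 7.71 normalized CPM with OI and PM, which was 3.79-fold its PM level (log2 1.92, SE 0.278, adjusted p = 0.000338, edgeR). Trib3, at 34.3 and 47.2, rose 3.17-fold (log2 1.67, SE 0.134, adjusted p = 4.98e-06, edgeR). Sesn2, at 43.7 and 45.8, rose 1.47-fold (log2 0.56, SE 0.0653, adjusted p = 7.92e-05, edgeR), and its 2 libraries differed by 0.07 on the log2 scale, the smallest gap among the members. Without replicate 1 of the WT OI+PM group the median over the members was 1.63, and without replicate 2 it was 0.996, with all 10 still higher by the adjusted p in both fits, at log2 changes from 0.591 (Sesn2) to 2.22 (Chac1) and from 0.342 (Psat1) to 1.56 (Chac1). Of the 4 genes whose start regions hold the TGATGNAA element shown above, Chac1, Asns and Trib3 had the 3 largest log2 changes of the 10, and Atf3 came after 7 of them, which is a description without a test and holds for WT cells only.

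In cells labelled Acod1-/-, all 10 members were again above their PM level, and 6 passed by the adjusted p, against 13.9% of all genes that were higher. Atf5, Asns, Trib3 and Chac1 were higher DEGs, 4 of 10 against 1.85% of all genes. The median was 0.81, against 0.00 for all genes. Atf4, at 318 and 337 normalized CPM against 188 and 181 with PM, rose 1.77-fold (log2 0.83, SE 0.133, adjusted p = 0.000768, edgeR). Atf5, at 183 and 199.7, rose 2.21-fold (log2 1.15, SE 0.0987, adjusted p = 8.84e-06, edgeR). Atf3, at 732 and 771, rose 1.74-fold (log2 0.80, SE 0.0619, adjusted p = 4.07e-06, edgeR). Asns, at 90.8 and 86.98, rose 2.35-fold (log2 1.23, SE 0.132, adjusted p = 4.4e-05, edgeR). Trib3, at 24.9 and 25.1, was 2.03-fold its PM level (log2 1.02, SE 0.135, adjusted p = 0.000199, edgeR). Its log2 change was 0.955 at the lowest in the alternative fits and 0.973 with 1 library left out, both under the 2-fold threshold. The lowest count of higher DEGs in the alternative fits was 3 members. Atf5, whose start region held no TGATGNAA match, thus had the second largest log2 change in this genotype, between Asns and Chac1.

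Chac1 in this genotype was at 3.40 and 3.05 normalized CPM against 1.62 and 1.32 with PM (log2 1.13, SE 0.304, adjusted p = 0.0156, edgeR). Its adjusted p was 0.107 without PM replicate 2 and 0.0842 without OI+PM replicate 1. The other 4 genes did not pass in the fit of all 6 groups. Ddit3 was at 49.3 and 49.2 (log2 0.49, 95% interval 0.05 to 0.92, adjusted p = 0.0795, edgeR), and it passed in DESeq2 with an adjusted p of 0.0353 and in edgeR without either WT OI+PM library with 0.00181. Psat1 was at 41.5 and 40.2 (log2 0.22, adjusted p = 0.127, edgeR), and with either WT OI+PM library left out its adjusted p was 0.0287. Phgdh was at 2.89 and 2.03 (log2 0.66, SE 0.321, adjusted p = 0.145, edgeR) and Sesn2 at 31.5 and 32.5 (log2 0.10, 95% interval -0.05 to 0.24, adjusted p = 0.292, edgeR). In a fit of the 2 compared groups alone Ddit3, Psat1 and Phgdh passed as well, which made 9 of 10, against 24.3% of all genes that were higher in that fit. The same 3 passed with a correction for gene length and the replicate block (adjusted p = 0.00211, 0.0498 and 0.0483, edgeR), where 19.3% of all genes were higher. The OI+PM libraries of Psat1 were below both vehicle libraries, at 84.2 and 81.05, and those of Sesn2 overlapped its vehicle libraries, at 32.4 and 34.1.

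Between the genotypes, no member passed the test with vehicle. In edgeR 0 of 10 passed, 0 had an unadjusted p under 0.05 and DESeq2 called 0, against 1.83% of all genes by the adjusted p and 10.2% by the unadjusted p. The log2 differences ranged from -0.44 for Phgdh to 0.16 for Chac1, with a median of 0.06. In a fit of the 2 vehicle groups alone Atf5 (0.12, adjusted p = 0.0299, edgeR) and Phgdh (-0.45, adjusted p = 0.0264) passed. In that fit 10.4% of all genes were higher and 10.3% lower. With PM, 0 of 10 passed in edgeR and in DESeq2, against 2.4% of all genes, and 1 member had an unadjusted p under 0.05, as had 14% of all genes. This was Psat1, at 34.7 and 35.3 normalized CPM in libraries labelled Acod1-/- and at 41.9 and 46.3 in WT libraries, a log2 difference of -0.33 (95% interval -0.56 to -0.10, adjusted p = 0.155, edgeR). Without replicate 1 or without replicate 2 of the WT OI+PM group the difference was the same, its SE fell from 0.103 to 0.073, and its adjusted p was 0.0231 and 0.023. In the fit with a correction for gene length and the replicate block Psat1 passed as well (-0.32, adjusted p = 0.0493, edgeR). For the other 9 genes the intervals with PM included 0, the narrowest being that of Atf3, from -0.12 to 0.15, and of Sesn2, from -0.17 to 0.12.

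With OI and PM, every member was lower in the libraries labelled Acod1-/- than in WT libraries, with no overlap, as for 29.1% of all genes, and 7 of 10 passed by the adjusted p, against 4.45% of all genes that were lower and 2.51% that were higher. The median log2 difference was -0.66, and -0.03 for all genes. Phgdh was the only DEG among them (log2 -1.39, SE 0.269, adjusted p = 0.0172, edgeR), against 0.588% of all genes that were lower DEGs. Sesn2 had the smallest adjusted p, with a log2 difference of -0.48 (SE 0.0653, adjusted p = 0.00363, edgeR). Psat1 differed by -0.61 (SE 0.102, adjusted p = 0.0102), Asns by -0.74 (SE 0.129, adjusted p = 0.0119) and Trib3 by -0.70 (SE 0.129, adjusted p = 0.0148). Ddit3 differed by -0.83 (adjusted p = 0.032) and Atf4 by -0.55 (adjusted p = 0.0372). Chac1 at -0.96 (adjusted p = 0.0513), Atf5 at -0.29 (adjusted p = 0.0958) and Atf3 at -0.18 (adjusted p = 0.1) did not pass in edgeR.

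These calls between the genotypes rest on a few libraries. Without replicate 2 of the WT OI+PM group, which was above replicate 1 for all 10 genes, the median fell in size to -0.45 and 4 genes passed (against 2.2% of all genes that were lower in that fit), with Sesn2 at -0.45, Psat1 at -0.45, Trib3 at -0.46 and Asns at -0.51. Without replicate 1 of that group 10 passed, against 28.3% of all genes that were lower in that fit, and the median was -0.84. Without replicate 1 of the OI+PM group labelled Acod1-/- all member calls of the fit of all 12 libraries were lost, and without replicate 2 all but that of Sesn2. Most calls of lower genes over all genes were lost in both fits too. The medians of the members were then -0.66 and -0.65. A fit of the 2 compared groups alone called 0 members, but there 0 of all genes were lower, and the member median was -0.63. DESeq2 on all groups called 8, against 6.94% of all genes that were lower. Atf4 and Ddit3 did not pass without any 1 of the vehicle libraries or of the PM libraries labelled Acod1-/-, where the share of all genes that were lower fell too. Chac1 passed without either WT vehicle library. The difference was below 0 for all 10 genes in each of these fits.

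Whether OI acted differently in the genotypes was tested by the interaction. All 10 log2 differences were below 0, from -0.20 for Atf3 to -0.81 for Ddit3, with a median of -0.51 against -0.03 for all genes, and none passed in edgeR. Of the members, 6 had an unadjusted p under 0.05, compared with 6.39% of all genes, and the whole table held 0 calls. The smallest was that of Sesn2, -0.46 (95% interval -0.67 to -0.25, adjusted p = 0.231, edgeR), which DESeq2 called with an adjusted p of 0.0367. Without replicate 1 of the WT OI+PM group 6 members passed, against 3.27% of all genes that were lower by this test in that fit, Trib3 and Ddit3 with an adjusted p of 0.0141, Asns with 0.0239, Atf4 with 0.0255, Atf5 with 0.0299 and Sesn2 with 0.0356. Without replicate 2 of that group 0 passed and the median was -0.35. A smaller rise of these genes with OI in cells labelled Acod1-/- was therefore measured in every fit, but its test depended on which WT library was used.

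**Figure D3:**
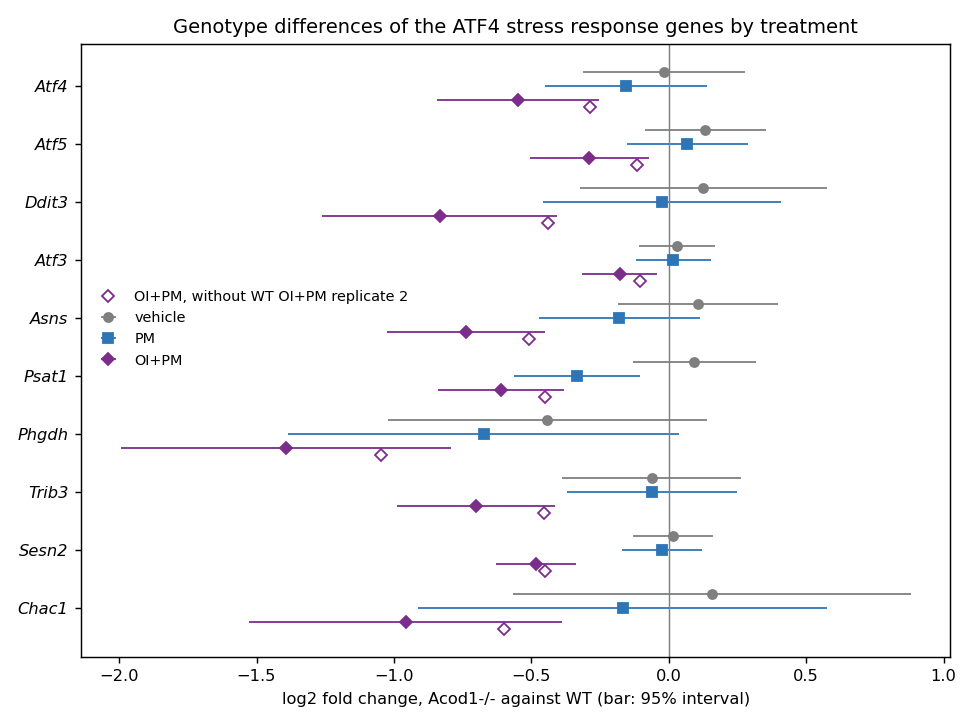
Log2 difference of Acod1-/- against WT BMDMs for each gene with vehicle (grey circles), PM (blue squares) and OI and PM (purple diamonds), with 95% intervals from the edgeR fit. Open diamonds give the difference with OI and PM without replicate 2 of the WT OI+PM group. Filled diamonds lie below 0 for all 10 genes, and every open diamond lies nearer to 0 than its filled one.

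A list of 57 further genes of the response, in 6 groups, shows how far the pattern extends, and 50 of them were tested. Cth, Cbs, Fgf21, Stc2, Aldh1l2, Slc7a3 and Vldlr were below the filter. With PM in WT BMDMs, 13 of the 50 (against 12.6% of all genes) rose and 5 (against 12.2%) fell by the adjusted p, with a median log2 fold change of 0.05, and 5 were higher DEGs, against 3.02% of all genes. Both counts by the adjusted p were smaller without either WT vehicle library or WT PM replicate 2 and larger without either WT OI+PM library. The shares of all genes moved the same way. The list median was 0.03 and 0.07 without WT vehicle replicate 1 and 2. With total count scaling 10 rose and 10 fell, against 9.69% and 18.1% of all genes, and the list median was -0.04. In a fit of the compared groups alone 11 rose and 3 fell, against 12.2% and 10.9% of all genes. The cystine carrier gene Slc7a11 (log2 3.33, adjusted p = 6.1e-07, edgeR) and the glycine transporter gene Slc6a9 (3.39, adjusted p = 9.74e-07) rose most, followed by Cebpb (1.33), which encodes a C/EBP partner of ATF4, Sqstm1 (1.30), which encodes the autophagy receptor p62, and Nupr1 (1.09). Slc7a11 and Sqstm1 are also known targets of NRF2, the factor of antioxidant defense. None of the 7 genes tested in the list group of serine, glycine, folate and proline enzymes rose. In this group, which also holds the transaminase gene Gpt2, Aldh18a1 (-0.38) and Gpt2 (-0.30) fell. In cells labelled Acod1-/-, 11 of the 50 rose and 8 fell with PM by the adjusted p, against 12% and 11.9% of all genes, with a median of -0.03. The count that fell was smaller without either vehicle library or PM replicate 1 of this genotype and larger without either WT OI+PM library. The share of all genes that fell moved the same way. With total count scaling 13 fell, against 16.4% of all genes. In a fit of the compared groups alone 16 fell and 16 rose, against 24.8% and 25.5% of all genes. Slc6a9 (3.56), Slc7a11 (3.26) and Cebpb (1.36) led the 8 higher DEGs (3.19% of all genes), and Pycr1 (-1.16, adjusted p = 0.0269, edgeR), an enzyme of proline synthesis at 0.464 normalized CPM with PM, was the 1 lower DEG. Of the kinases, Eif2ak1, Eif2ak2, Eif2ak3 and Eif2ak4 did not pass with PM in either genotype. Ppp1r15a, the stress-induced subunit of the eIF2alpha phosphatase, rose by 1.02 on the log2 scale (adjusted p = 8.16e-05, edgeR) in cells labelled Acod1-/- and, just short of the 2-fold threshold, in WT cells (SE 0.105, adjusted p = 0.000104).

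With OI and PM against PM in WT cells, 34 of the 50 rose and 2 fell by the adjusted p, where 21.3% and 22.6% of all genes did, with a median of 0.49, and 8 were higher DEGs, against 2.3% of all genes. Leaving out 1 library gave 29 to 34 that rose and 1 to 4 that fell, with 4 that fell without WT PM replicate 1 or WT OI+PM replicate 2 and 1 without WT PM replicate 2. A fit of the compared groups alone gave 21 that rose and 1 that fell, against 5.33% and 11.9% of all genes. Total count scaling gave 28 and 4, against 12.6% and 29.5%, and the length correction 36 and 5, against 25.2% and 26.5%. All 8 amino acid transporter genes tested rose, with Slc6a9 going from between 5.65 and 5.91 normalized CPM with PM to between 42.02 and 45.4 (log2 2.92, adjusted p = 3.24e-08, edgeR) and Slc7a11 from between 70.4 and 101 to between 402 and 442 (log2 2.30, adjusted p = 8.57e-07). Of the 12 tRNA synthetase genes, 10 rose, led by Cars (1.08) and Eprs (0.97), and Wars fell (-0.24). Of the 7 genes tested in the group of serine, glycine, folate and proline enzymes 5 rose, led by the mitochondrial folate enzyme Mthfd2 (1.38) and by Psph (0.99), the last enzyme of serine synthesis. Gdf15, a secreted stress hormone, rose by 1.79 (adjusted p = 4.23e-06, edgeR). Eif2ak2, which encodes the double-stranded RNA sensor PKR and is also an interferon-stimulated gene, fell by 1.13 (adjusted p = 0.000103, edgeR), while Eif2ak1 (0.16), Eif2ak3 (-0.16), Eif2ak4 (0.15) and the phosphatase subunit gene Ppp1r15b (0.15) did not pass and Ppp1r15a rose by 0.79 (adjusted p = 0.000148).

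In cells labelled Acod1-/-, 25 of the 50 genes rose and 7 fell with OI and PM against PM, where 13.9% of all genes rose and 20.6% fell, with a median of 0.29. The count that rose was smaller without replicate 1 of the PM or of the OI+PM group of this genotype and larger without either WT OI+PM library. The count that fell was smaller without replicate 1 of either group or PM replicate 2 of this genotype. In these fits the shares of all genes moved the same way. All 8 transporters rose, with Slc7a11 at 2.33 and Slc6a9 at 2.54, Gdf15 rose by 1.48, and Nupr1 fell by 1.30 (adjusted p = 0.00203, edgeR). Between the genotypes with OI and PM, 15 of the 50 genes (against 4.45% of all genes) were lower in the libraries labelled Acod1-/- and 1 (against 2.51%), Cebpd, was higher (0.60, adjusted p = 0.0302, edgeR), with a median of -0.26. Gdf15 was the only DEG of the list, at 50.7 to 58.8 normalized CPM against 96.5 to 129.9 in WT libraries (log2 -1.05, adjusted p = 0.00307, edgeR), and it was also lower with PM (-0.74, adjusted p = 0.0269), a call lost without any 1 of the WT PM libraries or of the vehicle or PM libraries labelled Acod1-/-. Slc6a9 (-0.94, adjusted p = 0.0014) and Mthfd2 (-0.59, adjusted p = 0.00943) were lower as well, whereas Slc7a11 did not pass (-0.08, adjusted p = 0.704). In a fit of the 2 compared groups alone 0 of the 50 genes were lower by the adjusted p, but there 0 of all genes were, and the list median was -0.24. The count of 15 lower genes was larger without replicate 1 of the WT OI+PM group. It was smaller without replicate 2 of that group, any 1 of the vehicle libraries, or any 1 of the PM or OI+PM libraries labelled Acod1-/-. In each of these fits the share of all genes that were lower moved the same way. With the length correction 25 were lower, against 8.43% of all genes. Cebpd did not pass without any 1 of the libraries labelled Acod1-/-. Gdf15 was at -1.25 and -0.82, Slc6a9 at -0.996 and -0.88 and Mthfd2 at -0.74 and -0.41 without replicate 1 and 2 of the WT OI+PM group, with an adjusted p up to 0.00907 (edgeR), while without replicate 1 of the OI+PM group labelled Acod1-/- it was 0.054 for Gdf15, 0.029 for Slc6a9 and 0.0859 for Mthfd2.

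The unfolded protein response has other branches, run by ATF6 and XBP1. For comparison, 16 genes of these branches were tested, with Atf6 and Xbp1 themselves among them. With PM in WT cells 13 of the 16 rose, against 12.6% of all genes, and 1, Atf6 itself, fell, against 12.2%. The median log2 fold change was 0.52, and Hspa5, the endoplasmic reticulum chaperone BiP, rose by 0.60 (adjusted p = 0.00044, edgeR). Fewer rose without either WT vehicle library, with the median still at 0.52, or without WT PM replicate 2, where it was 0.46. With OI and PM against PM in WT cells, 9 of the 16 fell and 1, Xbp1 (0.24), rose, against 22.6% and 21.3% of all genes, with a median of -0.20. Without replicate 1 and 2 of the WT OI+PM group the medians were -0.17 and -0.33, with fewer genes that fell in the first fit and more in the second. Fewer also fell without any 1 library of the other groups. In a fit of the 2 compared groups alone 2 fell, against 11.9% of all genes. Sdf2l1 fell by 0.94 (adjusted p = 8.85e-05, edgeR), Pdia4 by 0.51 (adjusted p = 5.48e-05) and Hspa5 by 0.23 (adjusted p = 0.0395, and 0.155 without WT OI+PM replicate 1). In cells labelled Acod1-/- these genes showed a median of 0.43 with PM, where 13 rose and 1 fell, against 12% and 11.9% of all genes. Fewer rose without any 1 of the vehicle or PM libraries of this genotype, where the median lay between 0.40 and 0.45. With OI and PM their median was -0.14, where 5 fell and 1 rose, against 20.6% and 13.9% of all genes. With total count scaling or the length correction 8 fell, against 24% and 24.8% of all genes. More also fell without either WT OI+PM library. Fewer fell without any 1 of the vehicle libraries or of the PM or OI+PM libraries labelled Acod1-/-. The median lay between -0.16 and -0.12 with any 1 library left out. None of the 16 was a DEG in these 4 comparisons. With OI the medians of the 10 members and of these 16 genes thus had opposite signs in both genotypes.

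**Figure D4:**
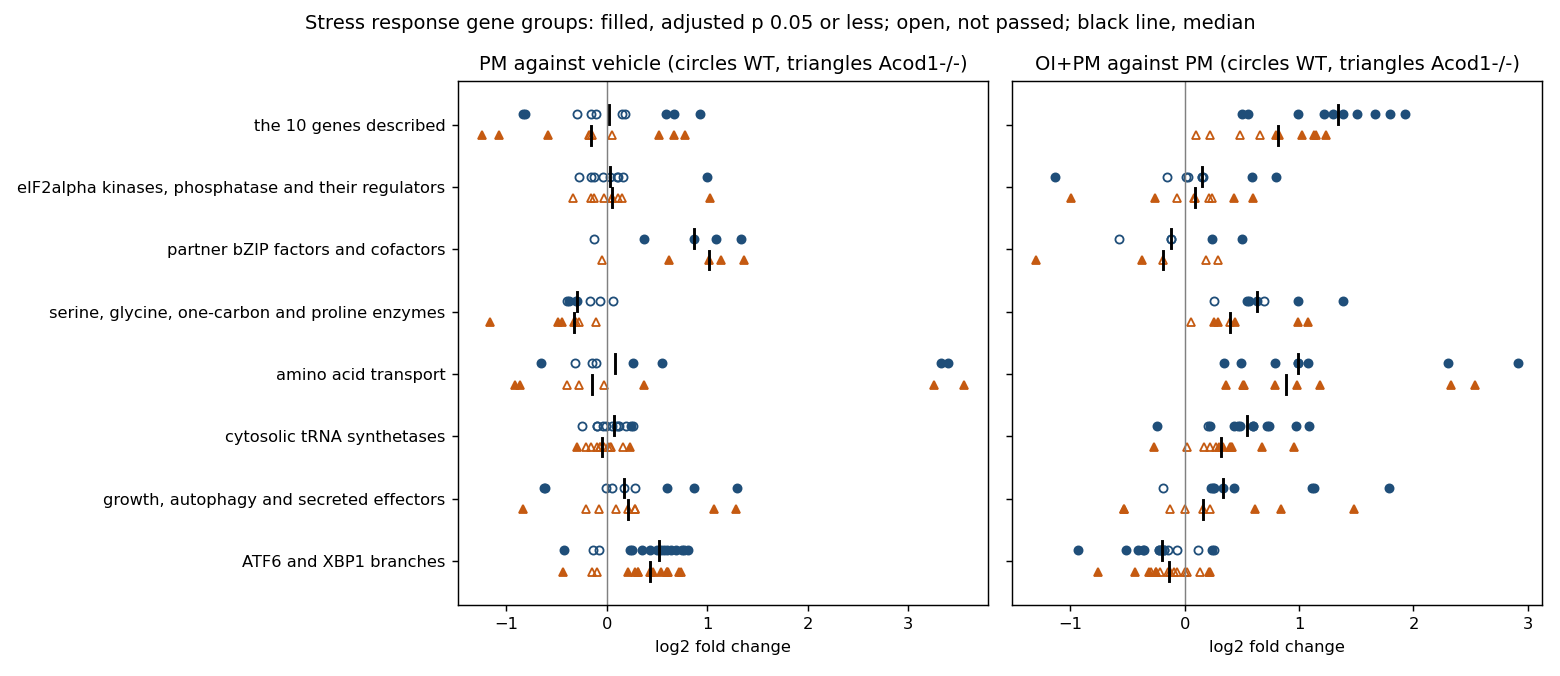
Log2 fold change of each tested gene in the 10 members, the 6 groups of the wider list and the 16 ATF6 and XBP1 genes, with PM against vehicle (left) and OI and PM against PM (right). Circles are WT and triangles Acod1-/- BMDMs, filled where the adjusted p was 0.05 or less, and black lines are medians. With OI in WT cells the medians run from 1.34 for the members and 0.99 for amino acid transport to -0.20 for the ATF6 and XBP1 genes.

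Across the 12 libraries, which share treatment groups and depth, log2 normalized CPM of Atf4 correlated with that of Chac1 (Pearson's r 0.97), Trib3 (0.96), Atf5 (0.95), Atf3 (0.94), Asns (0.93) and Ddit3 (0.92). Its correlation was 0.77 with Sesn2, 0.52 with Phgdh and -0.07 with Psat1. Between other members it ranged from -0.38 for Psat1 with Ddit3, -0.35 for Psat1 with Atf5 and -0.32 for Psat1 with Trib3 to 0.98 for Atf5 with Trib3, and Psat1 was nearest to Phgdh (0.73), which was nearest to Sesn2 (0.81). Of 9550 genes searched over these 12 libraries, the 3 most alike in pattern to Atf4 were Cars, a cysteinyl-tRNA synthetase, Tnfrsf12a and Acadl (all 0.99). Those for Atf5 were Kcmf1, Ppp2cb and the chaperone gene Hsp90ab1 (0.997, 0.997 and 0.996), those for Ddit3 were Lrpap1, Aldoa and Ubl7 (all 0.99), and those for Atf3 were Ighm, Cdkn2b and St7l (all 0.99). Asns was most like Nars, an asparaginyl-tRNA synthetase, Mthfd2 (both 0.99) and Prmt5 (0.987). For Trib3 the nearest were Hook2, Atp1b3 and Slc3a2 (all 0.99), the last being the shared heavy chain of amino acid carriers. Sesn2 was nearest to Pck2 (0.94), a mitochondrial enzyme of gluconeogenesis, Gramd1a (0.94) and Osgin2 (0.93), and Chac1 to Avpi1 (0.98), Dgat1 (0.97) and Polr3e (0.97). The nearest of Phgdh were Pfkp (0.97), Rgs1 (0.94) and Aldh18a1 (0.93), and Psat1 was most like Noct (0.96), with Arhgap25 (0.95) also near. These values describe 12 points in 6 groups and carry no test.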

How the data were processed

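Reads were counted on genes by the authors, with STAR 2.5.3a as aligner on GRCm38, featureCounts as counter, and FastQC 0.11.5 and Picard 2.9.0 for quality, from single reads 50 bp long, per the labels and the methods of the study. What the authors deposited are whole-number counts, not normalized. The annotation release and the handling of strand are not given in the sources used here. Genes entered the test with more than 1.5 CPM in 2 or more of the 12 libraries. Counts were scaled by TMM and fitted with edgeR 4.0.16 (quasi-likelihood, a mean for each of 6 groups, no replicate block) in R 4.3.3, with Benjamini-Hochberg adjustment across 11228 genes. A DEG needed an adjusted p up to 0.05 together with a 2-fold change. Standard errors were taken from the F statistic. Normalized CPM used the TMM library sizes, and RPKM are these divided by exonic length. Symbols were matched for 48349 of 48795 identifiers. Promoter sequences are from RefSeq, GRCm38.p6. DESeq2 1.42.0, other scalings, filters and thresholds, a replicate block, a correction for gene length and leaving out each library were tried. The test was checked on simulated data. The members, gene lists and the genes named were chosen with earlier results of these data known. Named are all members, the 3 genes most alike to each (1 of them is not reported here), the list genes with the largest called changes and a few others of the lists, chosen after their values were seen.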

Additional observations from a re-analysis of the deposited data

How the results depend on the processing

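No called change of a member reversed in any alternative run. For OI+PM against PM in WT cells the log2 change was above 0 for every member tested in every fit, and the filter of more than 1.5 CPM in all 12 libraries left 8 members to test. Total count scaling moved the median of all genes to -0.11 for OI+PM against PM in WT cells, where the member median was 1.20, and turned the member median for PM in WT cells from 0.02 to -0.07, with all genes at -0.08, while the length correction turned it to -0.13 with all genes at -0.0020. Chac1 and Phgdh, with the fewest counts, had the largest standard errors of the members in all 9 comparisons.

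Counts of genes past both thresholds moved as follows, and the cause was not tested. Without the fold threshold, the counts of higher and lower genes became 3 and 2 of the members and 13 and 5 of the wider list for PM in WT cells, 3 and 3 of the members and 11 and 8 of the wider list for PM in Acod1-/- cells, 10 members and 34 and 2 of the wider list for OI in WT cells, 6 members and 25 and 7 for OI in Acod1-/- cells, 1 and 1 between genotypes with PM, and 7 members lower with 1 wider gene higher and 15 lower between genotypes with OI and PM. For PM in Acod1-/- cells, 2 members were lower, and 1 with an adjusted p up to 0.01 or with the CPM filter in all 12 libraries, where the wider list went from 1 lower to 0, and total count scaling or the length correction took its higher genes from 8 to 5. For OI in WT cells the wider list had 8 higher and 1 lower, 4 higher with total count scaling and 3 lower with a filter of 10 counts. For OI in Acod1-/- cells it had 5 higher and 1 lower, 3 higher with the CPM filter, and 2 lower with that filter, total count scaling, the filter of 10 counts, the length correction or the block. Between genotypes with OI and PM, 1 member was lower, and 0 with the CPM filter, an adjusted p up to 0.01 or the compared groups alone, while the wider list went from 1 to 0 with total count scaling, the compared groups alone or the length correction. Leaving out 1 library at a time moved the counts of members and of wider genes for PM and OI in both genotypes. It also moved both counts between genotypes with OI and PM, and the count of members for the interaction with OI. In each of these comparisons the number of DEGs over all genes moved as well. Whether the members moved apart from all genes was not tested.

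Replicate numbers are shared between groups, but the labels do not say that a number marks a shared animal, batch or day. Deviations of libraries with the same number correlated from -0.41, between the PM groups of the 2 genotypes, to 0.73, between PM and OI+PM in WT cells, and were at 0.23 and 0.24 for the other pairs of WT groups. The libraries were not treated as paired. With the replicate block, 8 instead of 7 members were lower between genotypes with OI and PM (median -0.65), against 4.86% of all genes. Chac1 was added with an adjusted p of 0.0453, and Ddit3 passed for OI in Acod1-/- cells with 0.0472 (edgeR). The block with the length correction gave 1 lower DEG of the wider list between genotypes with PM, with 5 instead of 1 lower by the adjusted p, against 2.75% of all genes. The length correction without the block also gave 5, and the block alone gave 1. In the fit with both, Psat1 passed as well (0.0493, edgeR), and Ddit3, Psat1 and Phgdh passed for OI in Acod1-/- cells. With the numbers of the Acod1-/- PM libraries exchanged, chosen after seeing the data, 10 members were lower between genotypes with OI and PM, against 9.62% of all genes.

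Over all genes, the CPM filter in all 12 libraries reduced the DEGs from 466 to 227 and from 505 to 260 for PM, and from 1211 to 676 and from 1104 to 581 for OI, in WT and Acod1-/- cells, and without the fold threshold they were 2782, 2684, 4926 and 3881. Between genotypes with OI and PM there were 103, with 782 without the fold threshold, 48 with an adjusted p up to 0.01, 29 with the CPM filter, 2 in the compared groups alone, 343 and 66 without replicate 1 and 2 of the WT OI+PM group, and 38 and 46 without those of the Acod1-/- OI+PM group. With vehicle and with PM the 54 and 63 genes became 16 and 19 with the CPM filter, and 205 and 269 without the fold threshold. The 54 genes became 31 to 34 when 1 of the vehicle libraries was left out, and the 63 became 40 and 39 without replicate 1 and 2 of the Acod1-/- PM group. The interaction with OI had 0 calls, 5 in DESeq2, 4 with the length correction, 2 with the block as well, and 1 and 42 without WT PM replicate 1 and WT OI+PM replicate 1.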
